A study of Mus musculus with 22 samples.

Results

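The 9 transcripts described here mark the enteric nervous system and were followed across the gut of SIRT1 iKO and Flox control mice. They are Gfap, S100b and Sox10 for glia, Elavl4, Uchl1, Vip, Nos1 and Chat for neurons, and the receptor gene Ret. They were the 9 of 27671 gene names on the array whose name equals one of these symbols, and 15 probes carried them. The 22 arrays measured total RNA of whole tissue in 6 groups of C57BL/6 male mice kept on chow without special treatment. These were aged colon iKO (n = 4), aged colon flox (n = 3), aged ileum iKO (n = 4), aged ileum flox (n = 3), young ileum iKO (n = 4) and young ileum flox (n = 4). Aged mice were 24 months old and young mice 6 to 8 weeks old, and no young colon was analysed here. The labels do not spell out iKO, the cells in which Sirt1 was removed, what drove the deletion or the deleted part of the gene, nor whether colon and ileum came from the same aged mice; the series title speaks of intestinal SIRT1. In whole tissue, fewer cells of a type and less RNA per cell cannot be told apart.

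The enteric nervous system lies in the gut wall as a plexus between the muscle layers and another beneath the mucosa, and it runs motility, secretion and blood flow without the brain. Its neurons and glia descend from neural crest cells that colonise the gut in the embryo under the control of RET, the receptor for glial cell line-derived neurotrophic factor (GDNF), and of endothelin-3. Excitatory motor neurons release acetylcholine, which CHAT makes, and inhibitory motor neurons release nitric oxide, made by NOS1, and the peptide VIP. ELAVL4 (HuD) is a neuronal RNA-binding protein, UCHL1 (PGP9.5) a neuronal ubiquitin hydrolase, SOX10 the transcription factor of neural crest and glia, S100B a calcium-binding protein of glia and GFAP a glial filament protein.

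What each probe can show depends on where it sits in the transcript, so one 60-base probe sequence is given for each of 6 members, as in the array files (mouse build mm7, 5′ to 3′, all in lower case because no part is singled out). The S100b probe is the one on which the S100b levels rest, and the Nos1 and Chat probes are the brighter or only ones of those genes. The other 3 are the second probes of their genes, whose readings are set beside the main ones below.
S100b A_51_P208083, chr10:75915615-75915674, plus strand: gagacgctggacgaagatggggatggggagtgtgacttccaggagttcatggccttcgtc
Sox10 A_52_P192625, chr15:79239405-79239464, minus strand: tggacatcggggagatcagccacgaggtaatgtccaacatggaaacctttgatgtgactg
Elavl4 A_51_P503729, chr4:109588017-109588076, minus strand: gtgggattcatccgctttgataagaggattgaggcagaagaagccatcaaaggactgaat
Uchl1 A_52_P24308, chr5:66038170-66039261, plus strand: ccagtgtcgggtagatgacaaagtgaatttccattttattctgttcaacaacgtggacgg
Nos1 A_51_P160198, chr5:117181816-117181875, plus strand: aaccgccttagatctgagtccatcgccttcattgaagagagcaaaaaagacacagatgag
Chat A_52_P608523, chr14:29880627-29880686, minus strand: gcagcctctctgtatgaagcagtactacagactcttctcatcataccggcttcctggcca
The Uchl1 probe spans 1092 genomic bases for 60 bases of sequence, so it is not contiguous in the genome. For Elavl4, Uchl1, Sox10 and Chat the brightest probe lies 5408, 4522, 1378 and 5507 genomic bases downstream of the other probe of the gene. For Gfap it lies upstream of probe 2. Gfap probe 3 spans 2450 genomic bases for 60 bases of sequence, and the brightest Gfap probe lies within that span. Whether these Gfap probes read the same form of the transcript was not tested.

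Levels are log2 of the background-subtracted signal minus the 75th percentile of the array, so that 0 is the 75th percentile and 1 unit is a doubling. A gene is represented by its brightest probe over all arrays, and a probe counts as detected on an array when at least 50% of its spots were flagged well above background. The colon arrays were brighter, with 70.4 to 79.7% of spots well above background, against 49.8 to 61.5% on the ileum arrays. The lowest single spots flagged well above background lay between -6.56 and -5.87 on colon arrays and between -4.72 and -3.34 on ileum arrays. The flag rests on the surroundings of each spot, and a probe of several spots can be detected with a mean below that level, so it is an approximate limit. Ileum and colon were hybridised on separate slides, so tissue and array run cannot be told apart. Sirt1 was at 0.34 to 0.65 in aged colon iKO, against 0.76 to 0.79 in aged colon flox, and at 0.28 to 0.39 in aged ileum iKO, against 0.59 to 1.09 in aged ileum flox. In young ileum it was at 0.64 to 0.75 in iKO, against 0.60 to 1.19 in flox; none of these differences passed the test, and the probe may lie outside the deleted part. Aged ileum iKO replicate 2 and aged ileum flox replicate 1 stood apart from the other ileum arrays. They had the colonic water channel gene Aqp8 at 5.57 and 6.55 and the colonic carbonic anhydrase gene Car1 at 7.79 and 8.18. The colon arrays had Aqp8 at 6.27 to 8.09 and Car1 at 8.17 to 8.74, and the other 13 ileum arrays had them at -5.09 to -2.08 and -2.996 to 2.63. The ileal bile acid-binding protein gene Fabp6 was at ileal levels on both (3.60 and 3.20). Results with aged ileum are therefore also given without these 2 arrays; for the other genes named, this is done where the call changed.

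Of the 15 member probes, 5 were detected on all 22 arrays: those of S100b and Vip, both Uchl1 probes and 1 Elavl4 probe. The brighter Sox10 probe was detected on 7 of 7 colon and 12 of 15 ileum arrays. A further 8 probes, among them all those of Gfap, Nos1, Chat and Ret, were detected on no ileum array. Gfap was detected on 7 of 7 colon arrays by its brightest probe, on 1 of 7 by probe 2 and on 6 of 7 by probe 3. Chat was detected on 7 of 7 colon arrays by the probe printed above and on none by the other.

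**Figure D1:**
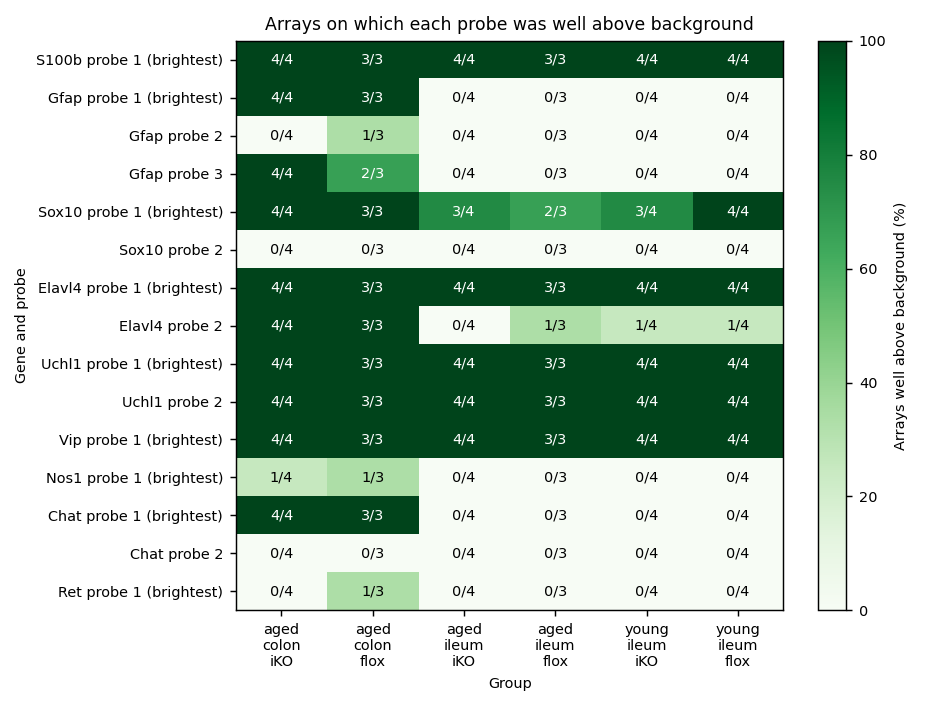
Arrays on which each of the 15 member probes was well above background, as counts and as percent of the arrays of each group (shade); probes of a gene are numbered with the brightest as 1. S100b, Vip, Uchl1 and 1 Elavl4 probe were detected on all 22 arrays, whereas the Gfap, Nos1, Chat and Ret probes were detected on no ileum array.

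Nos1 and Ret were each measured by 1 probe printed in 10 spots. Nos1 was detected only on aged colon iKO replicate 4 (level -6.16, 7 of 10 spots) and aged colon flox replicate 4 (-5.52, 9 of 10 spots). Ret was detected only on aged colon flox replicate 4 (-6.69, 5 of 10 spots), and on aged colon iKO replicate 3 3 of its 10 spots were well above background. Neither gene entered any comparison, and on the other arrays these readings limit only the signal of the probe. Whether they limit the transcript was not tested, and probes of 1 gene could differ widely. The mean over all arrays was 1.56 and -1.68 for the Uchl1 probes and -1.11 and -4.61 for the Elavl4 probes. A probe 5919 bases downstream of the Nos1 probe on the same strand is listed in the files as 2310005C01Rik, a name that the gene table gives as a synonym of Nos1. It was detected on all 22 arrays, with mean levels of -0.24 in aged colon iKO and -0.14 in aged colon flox, -1.48 in aged ileum iKO and -1.20 in aged ileum flox, and -1.69 in young ileum iKO and -1.65 in young ileum flox. It is kept under its file name and is not counted as a member.

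Among the glial markers, S100b lay at -0.09, -0.17, 0.30 and 0.29 in aged colon iKO, against 0.02, -0.06 and 0.50 in aged colon flox. S100b lay at -1.02, -0.03, -0.17 and -0.76 in aged ileum iKO, against 0.04, -0.79 and 0.05 in aged ileum flox. In young ileum S100b lay at -0.79, 0.14, -0.64 and -1.03 in iKO, against -0.59, -0.28, -0.19 and -0.39 in flox. The genotypes overlapped in every tissue and age, and the spread within the ileum iKO groups covered more than 1 log2 unit in young mice. Ordered by group mean, S100b ran aged colon flox, aged colon iKO, aged ileum flox, young ileum flox, aged ileum iKO and young ileum iKO, and no neighbours in that order differed by more than the larger of their SDs.

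Sox10 lay at -3.01, -2.54, -2.53 and -2.10 in aged colon iKO, against -2.77, -2.45 and -2.30 in aged colon flox. Sox10 lay at -3.01, -3.34, -3.75 and -3.02 in aged ileum iKO, against -3.26, -3.49 and -3.62 in aged ileum flox. In young ileum Sox10 lay at -3.14, -3.05, -2.83 and -3.91 in iKO, against -3.32, -3.54, -2.998 and -2.84 in flox. The 3 lowest of the 22 values (aged ileum iKO replicate 3, aged ileum flox replicate 4 and young ileum iKO replicate 4) were not well above background. The 2 colon groups headed the order, 0.63 above young ileum flox, and only that gap exceeded the larger SD of its neighbours.

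Gfap was a low signal in colon and was not detected in ileum. It lay at -4.54, -5.00, -4.39 and -4.21 in aged colon iKO, against -3.70, -4.40 and -3.97 in aged colon flox. The genotypes overlapped only in that aged colon flox replicate 3 (-4.40) lay below the 2 highest iKO arrays, and the group means differed by 0.52, more than the larger SD. The Gfap probe read -6.85 to -5.31 on the 7 aged ileum arrays and -6.74 to -5.83 on the 8 young ones, all below the flag for background.

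Among the pan-neuronal markers, Uchl1 lay at 2.03, 1.55, 2.02 and 2.34 in aged colon iKO, against 1.93, 1.70 and 2.39 in aged colon flox. Uchl1 lay at 1.04, 1.69, 1.63 and 1.08 in aged ileum iKO, against 1.66, 1.12 and 1.72 in aged ileum flox. In young ileum Uchl1 lay at 1.02, 2.06, 1.08 and 0.68 in iKO, against 1.24, 1.42, 1.29 and 1.53 in flox. Both colon groups stood above the ileum groups in the mean, with a gap of 0.48 to aged ileum flox that exceeded the larger SD. Young ileum iKO held the lowest and the highest of the 15 ileum arrays.

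Elavl4 lay at -0.80, -1.21, -0.94 and -0.71 in aged colon iKO, against -0.93, -1.32 and -0.36 in aged colon flox. Elavl4 lay at -1.74, -1.17, -0.99 and -1.69 in aged ileum iKO, against -1.15, -1.29 and -0.82 in aged ileum flox. In young ileum Elavl4 lay at -1.39, -0.58, -1.52 and -1.12 in iKO, against -1.30, -1.21, -0.95 and -1.18 in flox. All groups overlapped, and no neighbours in the order of means differed by more than the larger SD. Young ileum iKO replicate 2 was the highest ileum array for Elavl4, Uchl1 and S100b alike.

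Of the transmitter genes, Vip lay at 0.17, 0.39, 0.09 and 0.01 in aged colon iKO, against 0.26, -0.47 and 0.71 in aged colon flox. Vip lay at -0.14, -0.16, 0.80 and 0.94 in aged ileum iKO, against -0.11, 0.33 and 0.45 in aged ileum flox. In young ileum Vip lay at -0.87, -0.13, 0.38 and -0.60 in iKO, against -0.49, -0.56, 0.36 and 0.34 in flox. Vip had its highest mean in aged ileum iKO and its lowest in young ileum iKO, and no neighbours in the order differed by more than the larger SD. Chat lay at -4.92, -4.83, -4.54 and -4.71 in aged colon iKO, against -4.96, -4.86 and -3.71 in aged colon flox. A single colon array, flox replicate 4, set the higher flox mean of Chat, and that array was also the highest of the 7 for S100b, Elavl4, Uchl1, Vip and Nos1. On ileum arrays the Chat probe read between -6.36 and -4.64, not well above background.

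**Figure D2:**
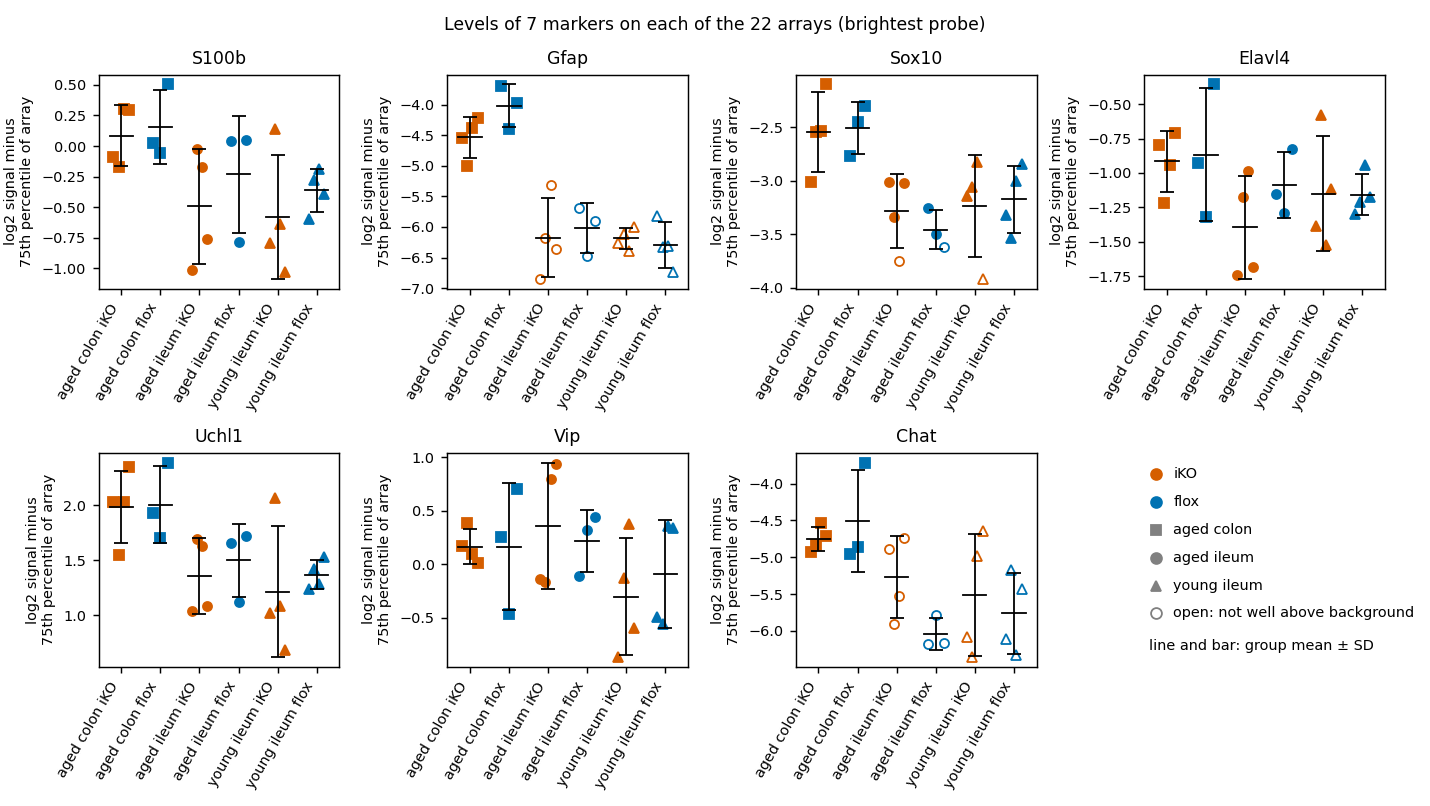
Level of 7 markers on each of the 22 arrays (log2 signal minus the 75th percentile of the array, brightest probe), with open symbols where the probe was not well above background and lines at the group mean ± SD. For Uchl1 the colon groups average 1.98 and 2.01 and the 4 ileum groups less, with young ileum iKO lowest at 1.21, and for Vip all 6 groups overlap.

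The first comparison sets iKO against flox, and none of these markers passed the test. In limma fits over all genes, with p-values adjusted by Benjamini-Hochberg, 0 of 7 tested members passed in aged colon, where 0.112% of 19593 genes passed. In aged ileum 0 of 5 passed, where 0.168% of 15488 genes did, and in young ileum 0 of 5, where 0.0452% did. With so few genes called, a count of 0 is near the background. At an unadjusted p below 0.05 the members' count was also 0 in each of the 3 comparisons. The design text gives 3 to 4 mice a group but no array label names its mouse, so p-values measure the spread between these samples, which may be partly technical.

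Gfap had the largest member difference in colon. Its mean was -4.54 ± 0.34 (SD, n = 4) in aged colon iKO and -4.02 ± 0.35 (SD, n = 3) in aged colon flox, a difference of -0.52 ± 0.23 (SE; limma adjusted p = 0.736; 95% interval -1.07 to 0.04). On each of the 3 slides that held both genotypes the Gfap difference was negative, at -0.61 to -0.42, and genotype coincided with the position on the slide. Gfap probe 3 differed by -0.29 (limma adjusted p = 0.951). Chat differed by -0.24 ± 0.30, and S100b, Sox10, Elavl4, Uchl1 and Vip by -0.07 to 0.00, with SEs of 0.19 to 0.27 (limma adjusted p = 0.957 to 0.999). For S100b the 95% interval ran from -0.53 to 0.38 and for Uchl1 from -0.56 to 0.52, so differences within these bounds are compatible with the 7 arrays. The intervals are not adjusted for the number of genes tested and are not limits of detection.

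In aged ileum, Elavl4 differed by -0.31 ± 0.23 (SE; limma adjusted p = 0.612), S100b by -0.26 ± 0.30, Uchl1 by -0.14 ± 0.28, Sox10 by 0.18 ± 0.25 and Vip by 0.14 ± 0.36. The limma adjusted p of the last 4 was 0.754 to 0.899. Without the 2 ileum arrays that carried colon transcripts, Elavl4 differed by -0.41 and S100b by -0.28 (limma adjusted p = 0.635 and 0.801), and again 0 of 5 passed. One slide held both genotypes of aged ileum, iKO replicate 2 and flox replicate 3, and there S100b, Uchl1, Elavl4 and Sox10 were higher in iKO, by 0.76, 0.57, 0.12 and 0.15, and Vip was lower, by -0.49. For S100b, Uchl1 and Elavl4 this is the opposite sign to the group means, and the pair rests on iKO replicate 2, one of the arrays that carried colon transcripts. In young ileum the 5 members differed by -0.22 (S100b), -0.21 (Vip), -0.16 (Uchl1), -0.06 (Sox10) and 0.01 (Elavl4), with SEs of 0.21 to 0.33 and limma adjusted p = 0.999. On the 4 slides, each with both genotypes of young ileum, genotype again coincided with the position on the slide. Within these slides S100b, Uchl1 and Elavl4 were lower in iKO on 3 and higher on 1. The slide on which all 3 were higher in iKO was the one with iKO replicate 2.

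The second comparison asks whether ageing moved the markers in ileum, and again none passed. In iKO ileum 0 of 5 members passed, where 10.7% of 15488 genes did, and in flox ileum 0 of 5, where 8.54% did; at an unadjusted p below 0.05 both counts were also 0. Vip came nearest. Its mean was 0.36 ± 0.59 in aged ileum iKO and -0.30 ± 0.55 in young ileum iKO (SD, n = 4 each), a difference of 0.66 ± 0.33 (SE; limma adjusted p = 0.216; 95% interval -0.05 to 1.38). It was positive on the 3 slides that held both ages of iKO, at 0.02 to 0.93, and was 0.84 without the 2 arrays that carried colon transcripts (limma adjusted p = 0.164). In flox ileum Vip differed by 0.31 ± 0.36 (limma adjusted p = 0.622). The other 4 members differed by -0.25 to 0.15 in iKO and by -0.28 to 0.13 in flox ileum, with limma adjusted p of 0.488 to 0.925. Age coincided with the position on the slide.

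**Figure D3:**
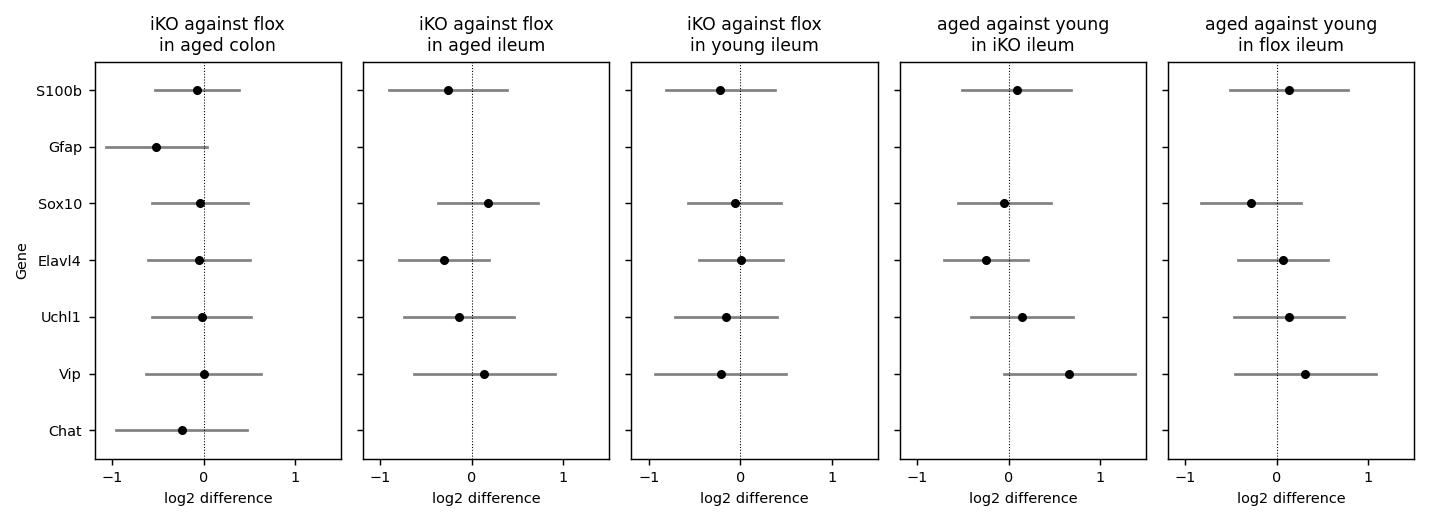
Log2 difference (x axis) of each member tested, iKO minus flox in the 3 tissues and ages and aged minus young in both ileum genotypes, with points at the limma estimate and lines for the 95% interval. Every interval includes 0, and the farthest estimates are Vip at 0.66 with age in iKO ileum and Gfap at -0.52 with genotype in colon.

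Whether the genotype difference itself changed with age was tested as an interaction, which no gene of the 15488 passed (0% called by limma, 390 at an unadjusted p below 0.05, none of them a member). Whether it differed between colon and ileum of aged mice was tested likewise, and 0.0356% of 19644 genes passed, none of the 7 members tested. Chat alone was below 0.05 unadjusted, at -1.02 ± 0.46 (SE; limma adjusted p = 0.824). Its ileum readings were not well above background.

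Colon against ileum was the comparison in which members passed. In aged iKO mice 3 of 7 tested members passed with a positive difference: Gfap, Sox10 and Uchl1. There 43.5% of 19644 genes passed. In aged flox mice 3 of 7 passed with a positive difference: Gfap, Sox10 and Chat. There 32.8% passed. The members' counts are near these shares, so the tissue difference is not particular to the markers. Gfap and Chat entered the test only through the colon, since neither was detected in ileum, and their differences are set against background readings. Sox10 also entered only through the colon, since neither aged ileum group had it detected on every array. Among the 4 members detected on every aged array (S100b, Elavl4, Uchl1 and Vip), 1 passed in iKO, Uchl1, and 0 in flox.

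Sox10 passed in both genotypes and, unlike Gfap, was detected on part of the aged ileum arrays, 3 of 4 iKO and 2 of 3 flox. It averaged -2.55 ± 0.37 in colon and -3.28 ± 0.35 in ileum of iKO mice (SD, n = 4 each), a difference of 0.73 ± 0.21 (SE; limma adjusted p = 0.0140). It averaged -2.51 ± 0.24 in colon and -3.46 ± 0.18 in ileum of flox mice (SD, n = 3 each), a difference of 0.95 ± 0.24 (SE; limma adjusted p = 0.0106). The flox arrays of the tissues did not overlap, and the iKO arrays met at -3.01, the lowest colon and the highest ileum value. Without the 2 ileum arrays that carried colon transcripts Sox10 still passed, at 0.71 in iKO and 1.05 in flox (limma adjusted p = 0.0373 and 0.0199). The other Sox10 probe was not well above background on any array, and averaging it in turned the Sox10 difference to -0.44 in iKO and -0.73 in flox (limma adjusted p = 0.0771 and 0.0228), so that in flox it passed in the opposite direction.

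Gfap differed between the tissues by 1.64 ± 0.31 in iKO mice (SE; limma adjusted p = 0.00115) and by 2.001 ± 0.35 in flox mice (limma adjusted p = 0.00132), by 1.64 and 2.17 without the 2 arrays (0.0043 and 0.0036), and no colon array overlapped an ileum array. As Gfap was not detected in ileum, these values are set against background readings. The lowest spot flagged well above background on each ileum array served as a floor, which some unflagged probes exceeded. Gfap in colon of flox mice stood 1.22-fold above that floor. This is not a firm lower bound. On aged ileum flox replicate 4 Sox10 read -3.62 without the flag, above the Gfap mean of -4.02 in aged colon flox. In iKO mice the colon level of Gfap lay below the floor, so no fold is given. With another background correction (normexp, then quantile scaling) the Gfap difference was 0.57 in iKO and 0.92 in flox. Gfap probe 3 differed between the tissues by 0.02 in iKO and 0.81 in flox (limma adjusted p = 0.956 and 0.0842). Chat, the acetylcholine-synthesising enzyme, differed by 0.52 ± 0.30 in iKO (limma adjusted p = 0.183) and by 1.53 ± 0.34 in flox (limma adjusted p = 0.0055). Without the 2 arrays that carried colon transcripts Chat differed by 0.30 and 1.46 (limma adjusted p = 0.454 and 0.0125). Colon and ileum Chat readings overlapped in iKO and did not in flox. The colon levels of Chat lay below the ileum floor, so no fold is given. The normexp value for Chat was 0.15 in iKO and 0.63 in flox.

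Uchl1 averaged 1.98 ± 0.33 in colon and 1.36 ± 0.35 in ileum of iKO mice (SD, n = 4 each), a difference of 0.63 ± 0.23 (SE; limma adjusted p = 0.0414). In flox mice the difference was 0.51 ± 0.26 (limma adjusted p = 0.159), and the test of whether the genotypes differ gave 0.12 ± 0.35 (limma adjusted p = 0.961). The Uchl1 call in iKO was lost without aged ileum iKO replicate 1 or 4 (limma adjusted p = 0.111 and 0.108), without aged colon iKO replicate 1, 3 or 4 (0.0808, 0.0834 and 0.112) and with the other Uchl1 probe (0.0640). S100b differed by 0.58 ± 0.26 in iKO (limma adjusted p = 0.0879) and by 0.39 ± 0.30 in flox (0.341). Without the 2 ileum arrays that carried colon transcripts S100b passed in iKO, at 0.73 (limma adjusted p = 0.0476), and so did Uchl1, at 0.74 (0.0368). Elavl4 differed by 0.48 ± 0.23 in iKO (limma adjusted p = 0.106) and by 0.22 ± 0.26 in flox (0.550), and its other probe by 0.90 in iKO (0.0249). Vip was the only member with a negative difference, at -0.19 ± 0.29 in iKO and -0.06 ± 0.34 in flox (limma adjusted p = 0.627 and 0.918). The 2310005C01Rik probe was higher in colon by 1.24 ± 0.27 in iKO and by 1.06 ± 0.31 in flox (SE; limma adjusted p = 0.0030 and 0.0200), and by 1.32 and 1.16 without the 2 arrays (0.0064 and 0.0353).

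**Figure D4:**
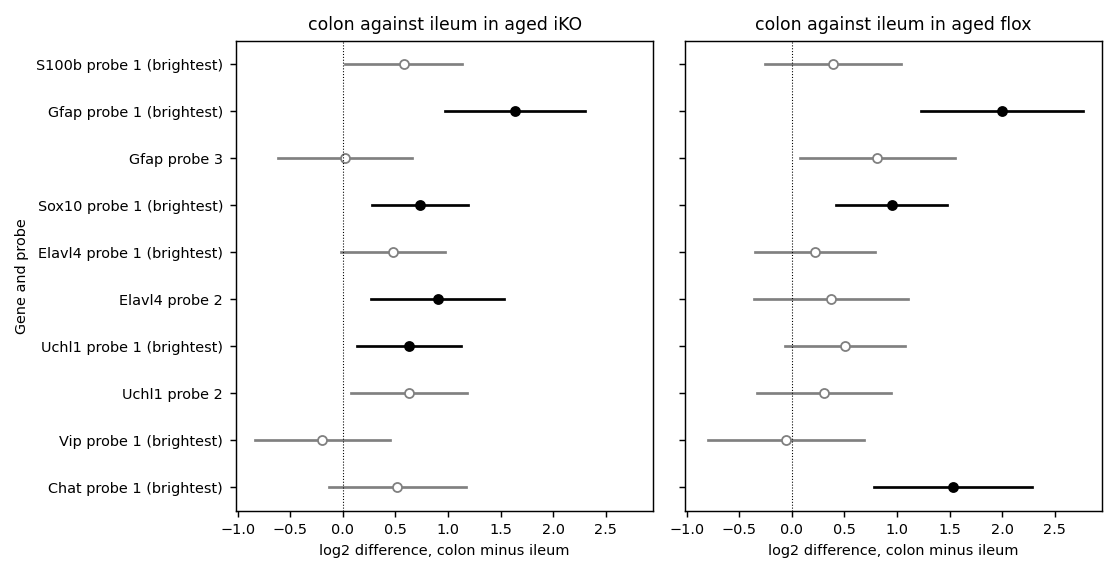
Log2 difference, colon minus ileum, in aged iKO and aged flox mice, with points at the limma estimate and lines for the 95% interval, filled where the adjusted p was below 0.05. Gfap lies at 1.64 and 2.001 by its brightest probe and at 0.02 and 0.81 by probe 3, and Vip lies near 0 in both.

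Other genes of the pathway were read from lists. Between genotypes no gene of the enteric glia, pan-neuronal, transmitter, RET and endothelin-3, or receptor lists passed limma in any tissue or age, and at an unadjusted p below 0.05 there were 0 in aged colon, 3 in aged ileum and 1 in young ileum. Of the nearest, Map2 differed by 0.73 ± 0.32 and Gfra3, the artemin co-receptor, by 0.33 ± 0.14 in aged colon (SE; limma adjusted p = 0.713 and 0.715). In aged ileum the 3 were Vipr1, a receptor for VIP, at 0.55 ± 0.17, Fabp7, a fatty acid-binding protein of glia, at -0.55 ± 0.23, and Edn3 at 0.59 ± 0.25 (limma adjusted p = 0.251, 0.366 and 0.372). All 9 glial genes tested there had a negative difference, with a median of -0.16, and 0 passed. A negative difference was shared there by all 10 smooth muscle, 8 fibroblast and matrix, 6 endothelial and 9 enteroendocrine genes tested. The sign is therefore not particular to glia. All 6 B and plasma cell genes tested and 5 of 7 epithelial genes had a positive difference. Elavl3, a neuronal relative of Elavl4, differed by -1.44 ± 0.50 in young ileum (limma adjusted p = 0.999). Of 7 tested genes of the RET and endothelin-3 pathway, Nrtn, the GDNF relative neurturin, fell with age by 0.39 ± 0.11 in iKO ileum and by 0.69 ± 0.12 in flox ileum (SE; limma adjusted p = 0.0418 and 0.0060). Of 12 tested transmitter genes, Ache, the enzyme that breaks down acetylcholine, rose with age, by 0.94 ± 0.16 in iKO and 0.74 ± 0.17 in flox (limma adjusted p = 0.0043 and 0.0234). Without the 2 arrays that carried colon transcripts Nrtn was at -0.40 and -0.74 (limma adjusted p = 0.0814 and 0.0247) and Ache at 0.90 and 0.55 (0.0094 and 0.0995) in iKO and flox ileum, so that each kept its call in 1 genotype. Without them Vipr1 passed in flox ileum, at -0.65 (limma adjusted p = 0.0373), against -0.46 with them (0.114). Calca, the gene of calcitonin gene-related peptide, then entered the test and passed at 3.40 in iKO and 2.36 in flox ileum (limma adjusted p = 0.0005 and 0.0165). Calca entered only through aged ileum, as neither young group had it detected on every array. Its rise is therefore set against young readings that were not all above background. No gene of the glial list (9 tested) or the pan-neuronal list (12 tested) passed with age.

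The counts between tissues stand beside 43.5% of all genes called in iKO and 32.8% in flox. In flox most of the lists are near or below that share. In iKO the transmitter list and the RET and endothelin-3 list are near it. The glial, pan-neuronal, receptor, smooth muscle, interstitial cell of Cajal and epithelial lists are above it in iKO. Whether a list departs from these shares was not tested. Between tissues, 7 of 15 pan-neuronal genes were higher in colon of iKO mice and 1 was lower, and in flox mice 2 were higher and 0 lower. Without the 2 arrays that carried colon transcripts 8 were higher in iKO and 1 in flox. Map2, a microtubule-associated protein of neurites, was higher by 1.82 ± 0.25 in iKO and 0.92 ± 0.29 in flox (limma adjusted p = 0.0001 and 0.0284), and Snap25, of the vesicle fusion complex, by 0.94 ± 0.24 in iKO (0.0076). Map2 was detected on 2 of 4 iKO and 1 of 3 flox arrays of aged ileum, and without the 2 arrays it no longer passed in flox (0.82, limma adjusted p = 0.0968). Of 18 transmitter genes 6 were higher and 1 lower in iKO, and 7 were higher and 1 lower in flox, or 6 and 1 in both without the 2 arrays. Grp, gastrin-releasing peptide, was higher by 2.82 ± 0.52 in iKO and 2.13 ± 0.60 in flox (limma adjusted p = 0.0010 and 0.0173). Npy, neuropeptide Y, was the lower one, by -2.05 ± 0.34 in iKO and -2.36 ± 0.39 in flox (0.0005 and 0.0009). Of 11 other glial genes 5 were higher and 2 lower in iKO, and 1 was higher and 2 were lower in flox, or 4 and 2 in iKO and 1 and 3 in flox without the 2 arrays. Kcna1, a potassium channel, was higher by 0.96 ± 0.21 in iKO and 0.69 ± 0.24 in flox (0.0029 and 0.0460), and Apoe, an apolipoprotein that other cells also make, was lower by -0.90 ± 0.18 in iKO and -1.14 ± 0.21 in flox (0.0018 and 0.0017).

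Of 9 genes of the RET and endothelin-3 pathway 3 were higher and 1 lower in colon of iKO mice, and 2 were higher and 1 lower in flox mice. Edn3, the endothelin-3 gene, was lower by -2.59 ± 0.22 in iKO and -1.88 ± 0.25 in flox. Gdnf, the RET ligand, was higher by 0.60 ± 0.20 in iKO (limma adjusted p = 0.0305), where 1 of 4 ileum arrays had it well above background. Gfra1, the co-receptor that binds GDNF beside RET, was detected on 7 of 7 colon arrays and on 0 of 7 aged ileum arrays, so no fold is given. Without the 2 arrays Gfra1 no longer passed in iKO (limma adjusted p = 0.0524), and the pathway had 2 genes higher and 1 lower in iKO and 1 of each in flox. Of 6 receptors and targets of the transmitters 2 were higher and 1 lower in iKO, and 0 passed in flox. Without the 2 arrays Vipr1 passed in flox (0.61, limma adjusted p = 0.0178). Of 10 smooth muscle genes 8 were higher in colon of iKO mice and 3 of flox mice, against 43.5% and 32.8% of all genes called in either direction, with median differences of 0.80 and 0.50. Their summed level was 8.48 to 9.20 in aged colon iKO and 8.71 to 8.96 in aged colon flox, against 7.71 to 8.31 in aged ileum iKO and 8.17 to 8.33 in aged ileum flox. Ano1 and Kit, which mark the interstitial cells of Cajal, were higher by 2.79 and 1.20 in iKO and by 2.85 and 0.66 in flox, and without the 2 arrays Kit no longer passed in flox (0.61, limma adjusted p = 0.0869). Of 7 epithelial genes 1 was higher and 4 were lower in iKO, and 3 were lower in flox. Of 10 enteroendocrine genes 7 were higher and 1 lower in iKO, and 5 were higher and 2 lower in flox. Their median differences were 1.68 and 1.01. Of 9 tuft cell genes 2 were higher in iKO and 1 in flox, and 0 were lower. Neither of these lists was counted without the 2 arrays. The part of cell content, muscle included, and of array brightness in the members' tissue difference was not tested.

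Within groups the markers did not all vary together. Each array's level was set against the mean of its own group, and correlations across arrays describe how members moved side by side. All members of an array share its RNA, hybridisation and scaling. Over the 15 ileum arrays S100b and Uchl1 correlated at r = 0.93 (rho = 0.97, and r = 0.92 without the 2 arrays farthest from the median). S100b and Elavl4 correlated at 0.80, and Elavl4 and Uchl1 at 0.77 (0.71 and 0.56 without the 2 farthest). Sox10 correlated with S100b at 0.04 and with Uchl1 at 0.12, and with Elavl4 at -0.36, although Sox10 and S100b both mark glia. Sox10 was a low signal in ileum, detected on 12 of 15 arrays. Vip correlated with S100b, Elavl4 and Uchl1 at 0.13 to 0.16. Over the 7 colon arrays Elavl4 and Uchl1 correlated at 0.92, S100b and Uchl1 at 0.86 and S100b and Elavl4 at 0.78, and these were 0.96, 0.90 and 0.72 without the 2 farthest. Gfap and Uchl1 correlated at 0.75 in colon, but at -0.08 without those 2, and Elavl4 and Vip at 0.67 and -0.88. In colon, where Sox10 was detected on 7 of 7 arrays, S100b and Sox10 correlated at 0.61, and at 0.66 without the 2 farthest. Sox10 correlated there with Uchl1 at 0.40 and with Elavl4 at 0.23.

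**Figure D5:**
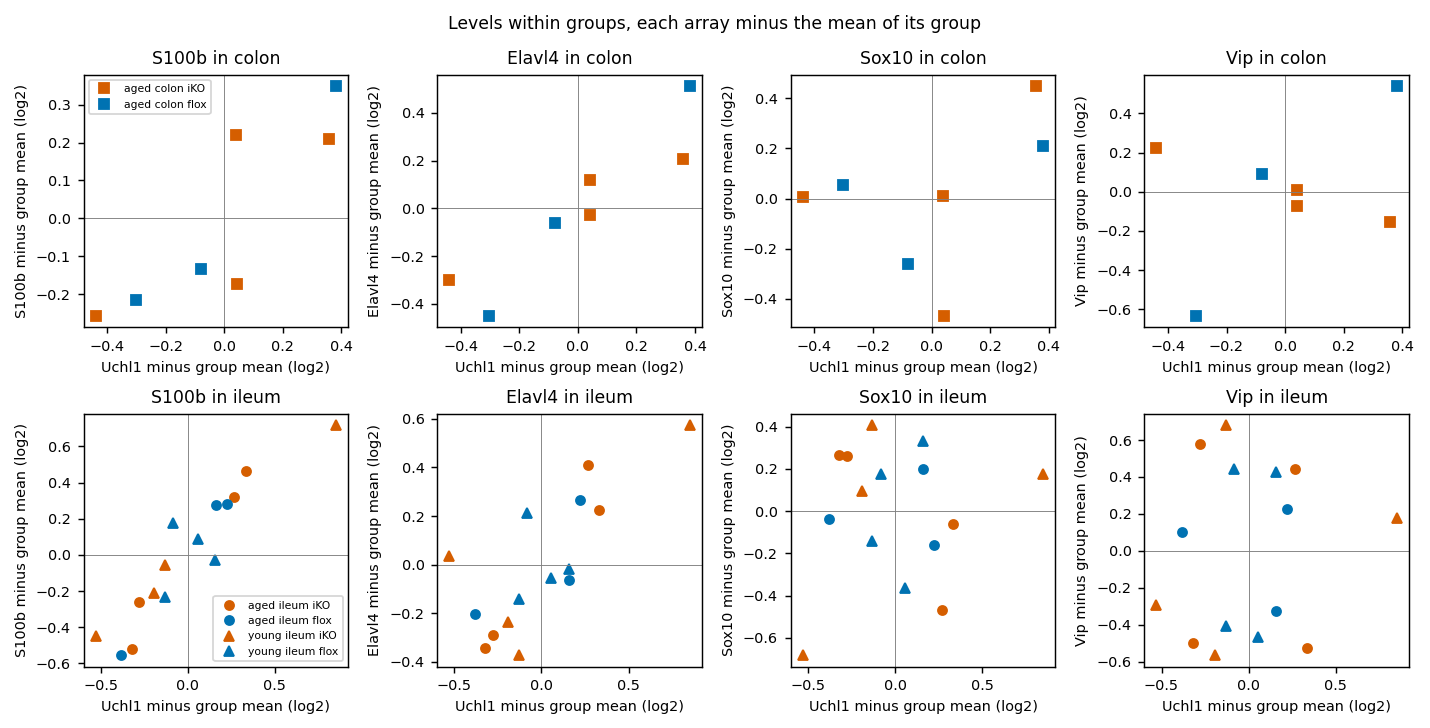
Level of S100b, Elavl4, Sox10 and Vip (y axis) against Uchl1 (x axis) on each array, both as log2 minus the mean of the array's group, in the 7 colon arrays (upper row) and the 15 ileum arrays (lower row). S100b follows Uchl1 in both tissues (r = 0.86 and 0.93), and Sox10 and Vip do not in ileum (r = 0.12 and 0.13).

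The mean of the members' standardised, centred levels was used to find genes of like pattern. In ileum, over 15 arrays and 5 members, the 5 of 15483 genes with the highest Pearson correlation were Garnl3 (0.96), Gal (0.95), Kcnk3 (0.93), Grb14 (0.93) and Nsg1 (0.92). In colon, over 7 arrays and 7 members, they were Fam163a, Cadm1, Ninl, Tmem179 and Serpind1, at 0.99 to 1.00 among 19586 genes. These are the highest of 19586 values over only 7 arrays, so the selection alone can give values near 1. The members' mean in colon ran from -0.98 on aged colon flox replicate 3 to 1.22 on replicate 4 of that group. The mean of the pan-neuronal list followed the members at 0.90 in ileum and 0.99 in colon, and that of the other glial genes at 0.62 and 0.63. In colon the tuft cell list (0.73), the myelinating Schwann cell list (0.64) and the ileum identity list (0.63) followed the members as closely as the glial list, and in ileum the list of interstitial cells of Cajal did so at 0.81. The smooth muscle list followed them at 0.81 in ileum and at 0.01 in colon, the epithelial list at 0.34 and -0.80, and the B and plasma cell list at -0.59 and -0.21. The part of muscle content in the members' variation between ileum arrays was not tested.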

How the data were processed

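Cy3-labelled cRNA was hybridised to 1-colour Agilent whole mouse genome arrays. The authors' scanner files were made with Agilent Feature Extraction 9.5, per the submitters' processing notes, and hold a signal intensity per spot that was background-subtracted and detrended within each array, per the file headers. The deposited value table held the same intensity, with no scaling between arrays. From these, log2 intensity minus the array's 75th percentile was computed here, whereas the deposited values are not on a log2 scale. Control spots were left out and spots of a probe averaged. Outlier-flagged spots were left out where another spot of the probe remained, and were otherwise kept. A gene, read by its brightest probe, was tested when 1 or more groups of the fit had that probe flagged above background on all their arrays. limma 3.58.1 (R 4.3.3) was fitted to the 15 ileum, the 7 colon and the 14 aged arrays, two-sided, with Benjamini-Hochberg adjustment over all genes and calls at adjusted p below 0.05. The fits were tested on simulated data, with 100 genes shifted by 1 log2 unit and 100 by 2. Over the comparisons simulated, 57 to 76 of the first and 77 to 96 of the second were recovered. The simulation drew independent noise, and the genotype fits called fewer genes than were shifted in it. Its recovery may therefore not carry over to those fits. All 9 members are named; other lists give up to 4 passing genes per comparison. Members and lists were chosen with earlier results of these data known. Scaling, background, filter, probe, slide, replicate block and left-out arrays were varied. Leaving out both aged ileum arrays with colon transcripts was chosen after seeing the data.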

Additional observations from a re-analysis of the deposited data

How the results depend on the processing

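Of 696 alternative values of the 42 member differences, 621 kept direction and side of the threshold, 11 lost and 4 gained the call, and 60 changed sign, 56 of them among differences that passed in neither setting; the cause was not tested. No genotype, age or interaction difference of a member passed under any setting run. Colon against ileum, 3 members passed in each genotype. With probes well above background on every array (4 members tested) 1 passed in iKO and 0 in flox, by fewer genes tested; with the mean over probes 1 passed in flox, Sox10, lower in colon, and of 3 in iKO 1, Chat, was lower; leaving out single arrays gave 2 to 4 in iKO and 3 to 3 in flox. The mean over probes turned the colon-ileum difference of Sox10 to -0.44 in iKO and -0.73 in flox and of Chat to -0.68 and -0.35, and in colon, iKO against flox, gave Sox10 0.40, Chat 0.035, Elavl4 0.023 and Uchl1 0.013, with Elavl4 at -0.0060 in young ileum. The other probe gave 0.095 for Elavl4 and 0.046 for Uchl1 in colon. Slide as a factor gave -0.14 for Sox10 and -0.15 for Vip in aged ileum, 0.12 for Sox10 and -0.0022 for Vip in colon, and -0.0046 for Elavl4 with age in flox. Quantile scaling gave -0.00090 for Vip in colon, and normexp 0.055 for Sox10 with age in iKO. Without both aged ileum arrays with colon transcripts S100b differed with age by -0.069 in iKO and -0.0073 in flox, and 1079 against 1663 genes passed with age in iKO and 580 against 1323 in flox.

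Replicate numbers were not taken as pairs, since not every pair of the same number correlated above 0.1: correlations ran from -0.36 to 0.37 in ileum (14 of 21 pairs above 0.1, 9 best matched to their own number), -0.11 to 0.10 in colon (1 of 3, 0) and -0.19 to 0.12 between aged ileum and colon (2 of 13, 4). Some of these 13 pairs join ileum and colon of different genotypes, which cannot be the same mouse. Those of the same genotype ran from -0.027 to 0.12. With the replicate number as a block, the Uchl1 colon-ileum call in iKO was lost (limma adjusted p = 0.0675), no other member call changed, and in colon, iKO against flox, Elavl4 gave 0.050, S100b 0.014, Uchl1 0.13 and Vip -0.073. That block joins iKO and flox arrays of the same number, so pairing by mouse was not tested.

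Leaving out single arrays changed the sign of these differences, given as lowest to highest. In colon, iKO against flox, Chat ran -0.46 to 0.16, Elavl4 -0.27 to 0.21, S100b -0.18 to 0.10, Sox10 -0.19 to 0.12, Uchl1 -0.17 to 0.17 and Vip -0.32 to 0.27. In aged ileum Vip ran -0.056 to 0.31. In young ileum Elavl4 ran -0.18 to 0.13, Sox10 -0.20 to 0.17 and Uchl1 -0.44 to 0.020. With age in iKO S100b ran -0.069 to 0.33, Sox10 -0.27 to 0.11 and Uchl1 -0.031 to 0.43; in flox Elavl4 ran -0.063 to 0.17 and S100b -0.011 to 0.41. Colon against ileum, Vip ran -0.37 to 0.00030 in iKO, and in flox Elavl4 ran -0.034 to 0.45 and Vip -0.33 to 0.26. Signal over background limits Gfap, Chat, Nos1 and Ret in ileum, where only upper limits on the signal of their probes exist.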
